A study of Mus musculus with 24 samples.

Results

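Amacrine cells are the inhibitory interneurons of the inner retina, and their subtypes are set during development by a cascade of transcription factors. PTF1A commits retinal progenitors to the amacrine and horizontal fates. PAX6, the AP-2 proteins, EBF3, BARHL2 and the NEUROD proteins also act in amacrine cells or in the choice of subtype. PRDM13, a zinc finger protein of the PR domain family, is itself part of this cascade and is made in a subset of amacrine cells. The question asked here was whether forced PRDM13 in the adult retina was accompanied by a shift of these regulators. The 9 genes examined were Pax6, Tfap2a, Tfap2b, Tfap2c, Neurod2, Neurod6, Ebf3, Barhl2 and Ptf1a, each found once by its symbol among the 56748 genes of the count table.

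RNA sequencing covered 24 libraries from 12 mice on C57BL/6J, a neural retina and an eye cup from each mouse. The eye cup held the RPE (retinal pigment epithelium), choroid and sclera. PRDM13-OE mice were heterozygous for a Rosa26 knock-in, made with TARGATT, in which an EF-1α promoter drives rtTA and a TRE3G promoter drives 3xHA-tagged human PRDM13, so expression was not limited to amacrine cells, and wildtype littermates served as controls. Both genotypes were either untreated or given doxycycline (dox) from postnatal day 28, in drinking water sweetened with 10% sucrose, at 2 mg/mL over 72 hours. Each of the 4 groups held 3 mice. The labels name no sucrose for the untreated mice, and leaky expression without dox is known for this system. Reads of the human transgene were not analysed here.

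Libraries held between 15825059 and 24908314 counts. Values are given as CPM, read counts set to a common library size with TMM factors from all 24 libraries, with the SD among the 3 mice of a group. A gene passed the test at an adjusted p under 0.05 in edgeR's quasi-likelihood test, and was called a DEG if its log2-fold change was also past 1 in either direction. Dox-treated wildtype retinas 1 and 2 stood apart with summed lens crystallins of 10674 and 4455 CPM, against at most 844 CPM in the other 10 retinas. Untreated PRDM13-OE eye cup 3 stood apart for several of the 9 genes.

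NEUROD proteins, like PTF1A, bind the E-box, CANNTG, which reads the same on both strands. The promoters of Neurod2, Neurod6 and Barhl2 are shown because they held more than 1 CANNTG, a choice made after the search. Each line holds the 250 bases before the RefSeq start, on the gene's strand, with every CANNTG in capitals. The sequences come from the RefSeq promoter table built on GRCm38.p6 and were placed by exact match in GRCm39, each at 1 site, at chr11:98220472-98220721, chr6:55658249-55658498 and chr5:106606033-106606282, all on the minus strand.
Neurod2: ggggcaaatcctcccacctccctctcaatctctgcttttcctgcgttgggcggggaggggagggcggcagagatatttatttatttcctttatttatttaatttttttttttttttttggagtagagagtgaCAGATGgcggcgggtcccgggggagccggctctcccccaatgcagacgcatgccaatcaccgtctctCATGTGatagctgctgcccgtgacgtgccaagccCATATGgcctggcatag
Neurod6: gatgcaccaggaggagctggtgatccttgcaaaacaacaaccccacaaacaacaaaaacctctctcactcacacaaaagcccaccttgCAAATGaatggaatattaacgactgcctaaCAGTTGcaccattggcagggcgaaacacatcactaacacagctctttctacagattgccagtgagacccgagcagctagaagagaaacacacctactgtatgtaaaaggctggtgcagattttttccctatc
Barhl2: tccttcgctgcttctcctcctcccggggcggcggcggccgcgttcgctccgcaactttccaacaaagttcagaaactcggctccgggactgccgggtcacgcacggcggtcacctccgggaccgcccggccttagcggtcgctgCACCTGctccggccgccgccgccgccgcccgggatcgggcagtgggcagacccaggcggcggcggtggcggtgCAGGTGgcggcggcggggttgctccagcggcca

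Neurod2 had 3 E-boxes in this window, Neurod6 had 2 and Barhl2 had 2. The pair in the Barhl2 window, CACCTG and CAGGTG, read as reverse complements of each other. The 8 genes in the promoter table had 10 windows, of which 5 held CANNTG, while 66.2% of all 32851 promoter windows of this length held it. The Ebf3 window held 0, the Tfap2b window 1 and 1 of the Pax6 windows 1. The letters of the AP-2 site, GCCNNNGGC, also the same on both strands and not overlapping a CANNTG in these windows, were present in 1 Ebf3 and 1 Pax6 window and in 13.7% of all windows. Tfap2c was not in the table. These matches describe letters and not binding.

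In the adult retina the 9 genes differed widely in level. Compared per length, as the FPKM deposited by the authors, the mean in untreated wildtype retinas was 31.7 ± 3.51 for Tfap2b, 21.0 ± 0.54 for Pax6 and 8.54 ± 1.00 for Barhl2 (SD, n = 3). Next in order were Neurod2 at 7.58 ± 0.32, Tfap2a at 6.63 ± 0.95, Tfap2c at 5.37 ± 0.44 and Ebf3 at 5.05 ± 0.49. Neurod6 stood at 0.56 ± 0.14. Over all 12 retinas, Tfap2b lay above Pax6 in every library and Pax6 above Barhl2. The ranges of neighbours from Barhl2 to Ebf3 in that order overlapped over the 12 retinas, whereas Barhl2 lay above Tfap2a, Tfap2c and Ebf3 in every library, and Neurod2 above Tfap2c and Ebf3.

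Ptf1a, the determinant of amacrine and horizontal fate, was not detected in the adult tissue. It had 0 to 2 counts in each of the 24 libraries, 6 in all 12 retinas together and 3 in all 12 eye cups, at or under the floor of 3 counts used here. That floor corresponds to 0.0799 to 0.126 FPKM for this gene, and it covers counting error only. No fold change is given for Ptf1a, because it had too few counts to be tested, and 8 genes remained.

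Pax6, a paired homeodomain factor kept in mature amacrine and ganglion cells, was compared first between PRDM13-OE and wildtype retinas under dox. It measured 233, 238 and 257 CPM in the 3 PRDM13-OE retinas and 269, 267 and 271 CPM in the 3 wildtype retinas. Every PRDM13-OE value lay below every wildtype value, and the wildtype retinas differed little from each other. The log2-fold change was -0.15 with an SE of 0.05 (95% interval -0.27 to -0.04), and the adjusted p was 0.0708, so Pax6 did not pass.

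Ebf3, a helix-loop-helix factor of a subset of amacrine cells, gave the lowest fold change of the 8 genes. It measured 42.2, 41.2 and 40.7 CPM in PRDM13-OE retinas and 49.0, 43.4 and 54.4 CPM in wildtype retinas with dox. The groups did not overlap, although the highest PRDM13-OE value and the lowest wildtype value were close. The log2-fold change was -0.25 with an SE of 0.08 (95% interval -0.42 to -0.07) and the adjusted p was 0.0693. In bulk tissue, fewer cells of a type and less RNA per cell cannot be told apart.

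Both genes sat near the threshold. Pax6 passed in 4 of 15 alternative settings and Ebf3 in 4 of 15, with adjusted p between 0.0393 and 0.419 for Pax6 and between 0.00582 and 0.225 for Ebf3. Without the 2 crystallin-rich wildtype retinas, the difference for Ebf3 was -0.41 (adjusted p = 0.0469 in edgeR) and that for Pax6 was -0.17 (adjusted p = 0.297 in edgeR), a comparison in which the wildtype group with dox was 1 retina. Leaving out PRDM13-OE retina 3 brought Pax6 past the threshold (log2-fold change -0.20, adjusted p = 0.0428 in edgeR), and leaving out wildtype retina 2 did so for Ebf3 (log2-fold change -0.33, adjusted p = 0.0136 in edgeR). Without wildtype retina 3 the change of Ebf3 was -0.16 (adjusted p = 0.211 in edgeR), and without PRDM13-OE retina 1 that of Pax6 was -0.13 (adjusted p = 0.176 in edgeR). Neither was a DEG in any setting.

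**Figure D1:**
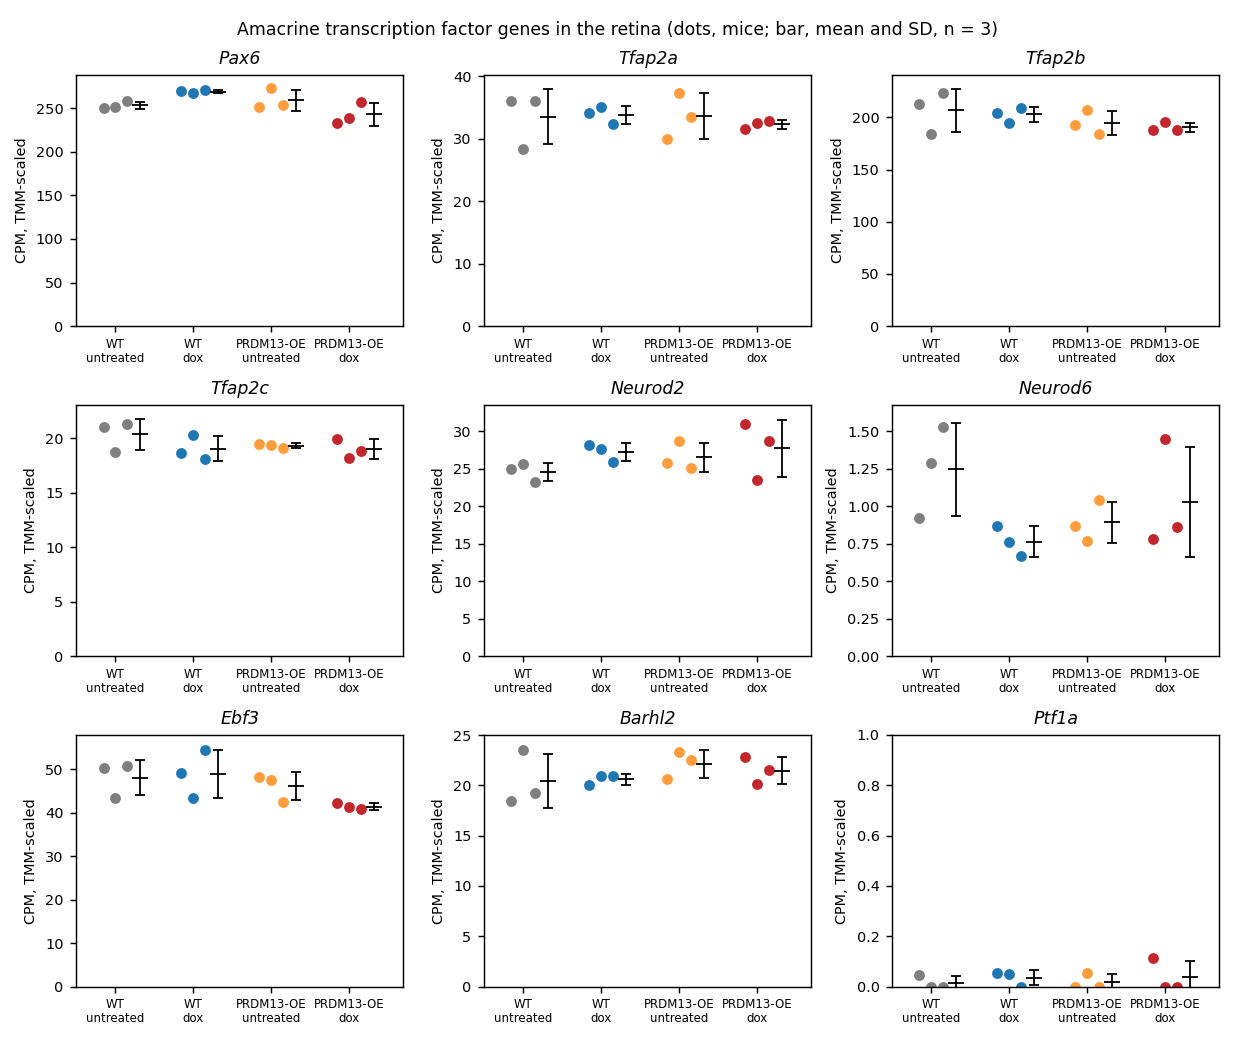
CPM of the 9 genes in the 12 retinas, by group on the x axis; dots are mice and the black bars are the mean and SD of 3. Pax6 and Ebf3 in PRDM13-OE retinas with dox lie below all 3 wildtype retinas with dox, and Ptf1a stays near 0 throughout.

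The AP-2 genes, which act in amacrine and horizontal cells, did not pass. Tfap2b measured 188, 195 and 188 CPM in PRDM13-OE retinas with dox and 205, 195 and 209 CPM in wildtype retinas with dox. These groups overlapped only at their nearest values, and the log2-fold change was -0.10 (95% interval -0.21 to 0.01, adjusted p = 0.252 in edgeR). Tfap2a measured 31.5, 32.5 and 32.9 CPM against 34.1, 35.1 and 32.3 CPM, a log2-fold change of -0.07 (95% interval -0.21 to 0.06). Tfap2c measured 19.95, 18.1 and 18.8 CPM against 18.7, 20.3 and 18.1 CPM, a log2-fold change of -0.01 (95% interval -0.18 to 0.16). The groups overlapped for Tfap2a and Tfap2c.

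Barhl2, a homeodomain factor of amacrine and ganglion cell subtypes, and the NEUROD genes of amacrine subtypes gave positive fold changes, with none past the test. Barhl2 measured 22.8, 20.1 and 21.5 CPM in PRDM13-OE retinas with dox and 19.98, 20.9 and 20.9 CPM in wildtype retinas with dox (log2-fold change 0.05, 95% interval -0.11 to 0.22). Neurod2 measured 30.9, 23.5 and 28.7 CPM against 28.1, 27.7 and 25.9 CPM (log2-fold change 0.02, 95% interval -0.19 to 0.22). Both pairs of groups overlapped. Neurod6, a marker of the nGnG amacrine subtype, had only 12 to 28 counts in these 6 retinas, and its log2-fold change of 0.42 had a 95% interval from -0.34 to 1.19.

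Of the 8 genes tested in PRDM13-OE against wildtype retinas with dox, 0 passed the test, while 12.5% of all genes did, and 0 were DEGs, against 2.41% of all genes. The share of all genes that passed was 7.52% without PRDM13-OE retina 2. It was 9.7% in a fit over all 12 retinas and 2.59% when that fit had the lens crystallin level as a covariate. The summed crystallins did not overlap between the 2 groups (3.35 to 27.2 against 111 to 10674 CPM), so crystallin level and genotype cannot be told apart. An unadjusted p under 0.05 was reached by 2 of the 8, Pax6 and Ebf3, and by 26.6% of all genes. DESeq2 passed 1 of the 8, Pax6, and 15% of all genes. The median log2-fold change was -0.04 over the 8 and 0.01 over all genes, and the groups did not overlap for 2 of the 8, against 31.8% of all genes. Leaving aside Neurod6, the 95% intervals of the other 7 lay within -0.42 and 0.22, so a 2-fold change lay outside each of them.

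Dox in wildtype mice, the control for the drug and sucrose, moved none of the 8 past the test. The log2-fold changes against untreated wildtype retinas ran from -0.69 for Neurod6 to 0.15 for Neurod2. Neurod2 measured 28.1, 27.7 and 25.9 CPM with dox and 24.9, 25.6 and 23.2 CPM without, and Pax6 250, 251 and 258 CPM without dox against the 267 to 271 CPM given above. For these 2 genes and for Neurod6 the groups did not overlap, 3 of 8 against 14.4% of all genes. The adjusted p was at least 0.546 for each of the 8, and 0.00485% of all genes passed, a figure that was also 0.00485% for DEGs. An unadjusted p under 0.05 was reached by 0 of the 8 and 9.32% of all genes, and DESeq2 passed 0 of the 8 and 0.573% of all genes. Without the 2 crystallin-rich retinas, which leaves 1 wildtype retina with dox, 0 of the 8 and 0% of all genes passed, and the changes of Pax6, Neurod2 and Neurod6 were 0.11, 0.09 and -0.88.

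The transgene without dox gave the same count of 0. In untreated PRDM13-OE against untreated wildtype retinas, the groups overlapped for each of the 8 genes, where 9.62% of all genes did not overlap, and 0.00484% of all genes passed. Pax6 measured 251, 273 and 254 CPM and Ebf3 48.2, 47.6 and 42.5 CPM in untreated PRDM13-OE retinas. An unadjusted p under 0.05 was reached by 0 of the 8 and 3.76% of all genes, and DESeq2 passed 0 of the 8 and 0.0194% of all genes.

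Within PRDM13-OE mice, dox against no dox again passed 0 of the 8, where 5% of all genes passed and 1.04% were DEGs. Ebf3 was the 1 gene of the 8 whose groups did not overlap, against 20.8% of all genes, and the 1 gene with an unadjusted p under 0.05 (log2-fold change -0.16, 95% interval -0.32 to -0.0011, adjusted p = 0.315 in edgeR). Pax6 had a log2-fold change of -0.10 (95% interval -0.23 to 0.03) and its groups overlapped. An unadjusted p under 0.05 was reached by 15.6% of all genes, and DESeq2 passed 0 of the 8 and 7.05% of all genes. These comparisons share groups, so their values for Pax6 and Ebf3 are not separate evidence.

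The interaction of genotype and dox, fitted over all 12 retinas, passed 0 of the 8, against 3.03% of all genes. It was -0.19 on the log2 scale for Pax6 (95% interval -0.35 to -0.03, adjusted p = 0.257 in edgeR), the 1 gene with an unadjusted p under 0.05. It was -0.19 for Ebf3 (95% interval -0.44 to 0.07). Of all genes, 14.4% had such a p. DESeq2 passed 0 of the 8 and 5.98% of all genes.

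**Figure D2:**
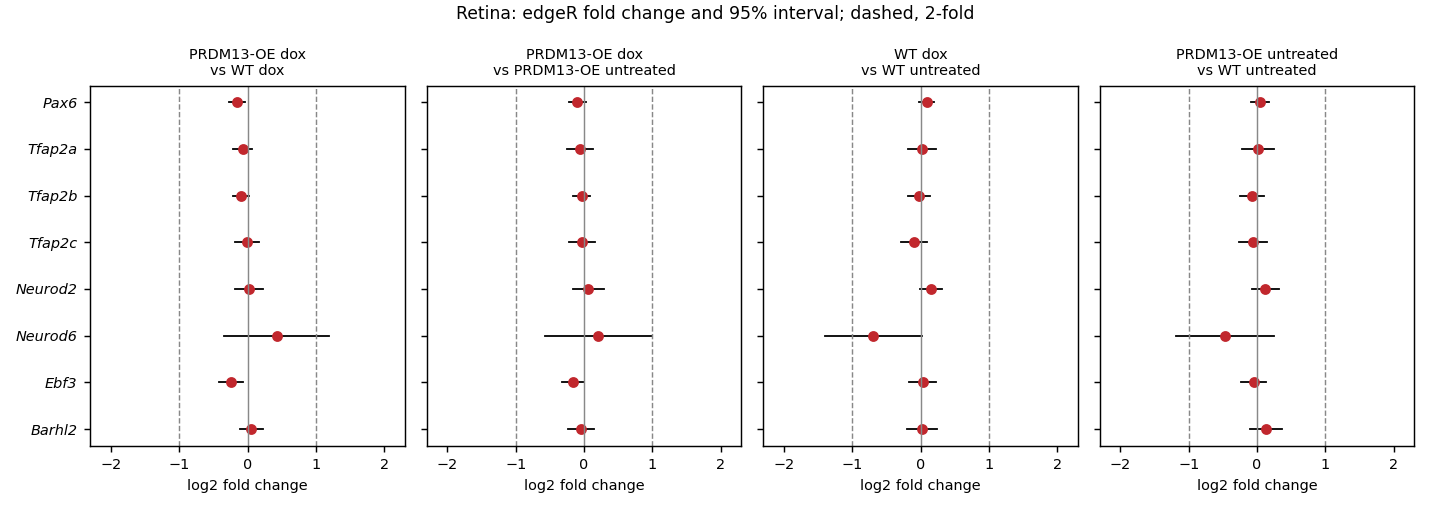
Log2-fold changes in the retina (x axis) of the 8 genes tested, with 95% intervals as bars, for 4 comparisons; dashed lines mark a 2-fold change. Each point estimate lies inside the dashed lines, and Neurod6 has the widest interval.

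Other amacrine genes were counted for context. Of 28 other amacrine transcription factors, 24 could be tested in PRDM13-OE against wildtype retinas with dox, and 3 rose and 2 fell, none of them a DEG, where 5.01% of all genes rose and 7.51% fell. Named after their values were seen, Rorb (log2-fold change 0.39, adjusted p = 0.00765), Sox2 (0.36, adjusted p = 0.0181) and mouse Prdm13 rose, and Neurod4 (-0.37, adjusted p = 0.0036) and Prox1 (-0.23, adjusted p = 0.03) fell in edgeR. The 3 that rose thus include the mouse gene of the induced factor, and whether transgene reads were counted on it was not tested. The median of the 24 was 0.00. With library size in place of TMM factors 4 rose and 1 fell, where 10.6% of all genes rose and 4.9% fell. Without the 2 crystallin-rich wildtype retinas Sox2 passed as higher and Neurod4 as lower, where 1.2% of all genes passed as higher and 2.49% as lower. That comparison leaves 1 wildtype retina with dox, and its spread comes from the other groups of retinas. Within PRDM13-OE mice, dox against no dox gave 1 higher, Sox2, and 1 lower, Neurod4, where 2.04% of all genes rose and 2.96% fell.

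Mouse Prdm13 measured 55.1, 56.9 and 49.9 CPM in PRDM13-OE retinas with dox and 48.0, 46.4 and 44.1 CPM in wildtype retinas with dox. The groups did not overlap, and the log2-fold change was 0.22 (SE 0.07, adjusted p = 0.0482 in edgeR). Whether reads of the human transgene were counted on this mouse gene was not tested. Against untreated PRDM13-OE retinas the change was 0.15 and did not pass (adjusted p = 0.378 in edgeR).

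Of 13 genes of amacrine transmission and calcium binding, called amacrine function genes here, 5 fell in PRDM13-OE against wildtype retinas with dox and 0 rose, against the 7.51% of all genes that fell, with a median log2-fold change of -0.19 against 0.01 for all genes. Named after their values were seen, they included Gad1 (-0.30) and Gad2 (-0.27), which make GABA, and the calcium binding genes Calb1 (-0.35) and Calb2 (-0.21), with adjusted p of at most 0.0166 in edgeR. None was a DEG. With library size in place of TMM factors 2 of the 13 fell, Calb1 and Gad1, against 4.9% of all genes, and without the 2 crystallin-rich wildtype retinas 3 fell, Calb1 and Gad1 among them, against 2.49% of all genes. Within PRDM13-OE retinas, 4 of the 13 were lower with dox than without (2.96% of all genes), with a median of -0.12, and the interaction of genotype and dox passed 0 of the 13 (3.03% of all genes), with a median of -0.13. Summed over the 13, the level was 1854 to 1944 CPM in the PRDM13-OE retinas with dox and 2062 to 2301 CPM in the other 9 retinas. Set against that sum, Pax6 was 120 to 139 CPM per 1000 CPM of amacrine function genes in PRDM13-OE retinas with dox and 118 to 127 in wildtype retinas with dox, and Ebf3 was 21.7 to 22.0 against 20.6 to 23.8, so both ranges overlapped on that scale. The ranges did not overlap for 4 of the 8, each higher in PRDM13-OE, where 40.3% of all genes were separated in that direction. They were Tfap2b (96.6 to 104 against 91.6 to 94.1), Barhl2 (10.7 to 11.7 against 9.14 to 9.92), Tfap2c (9.68 to 10.3 against 7.92 to 9.63) and, at few counts, Neurod6. The marker lists of the other retinal neurons and of Müller glia had negative medians too, -0.16 for ganglion cells, -0.23 for Müller glia, -0.29 for bipolar cells, -0.40 for horizontal cells, -0.43 for rods and -1.41 for cones, while that of microglia was 0.37. Of 10 rod markers 7 fell, with a summed level of 47272 to 53130 CPM in PRDM13-OE retinas with dox and 63395 to 69392 CPM in the other 9. The part of these shifts in the values of the 8 genes was not tested.

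Across the 12 retinas the 7 genes with a mean of at least 50 counts varied little, from 1.17-fold between the lowest and highest library for Pax6 to 1.34-fold for Ebf3. Among these 7, Ebf3 and Tfap2b ran closest (Pearson r = 0.81 of log2 CPM), and Barhl2 and Tfap2b were the furthest apart (r = -0.66). Of 13243 protein-coding genes, those nearest to Ebf3 were Prkar1a (r = 0.96) and Gnai1 (r = 0.96), and those nearest to Pax6 were 2900026A02Rik (r = 0.94) and Rhobtb2 (r = 0.93). For Tfap2b they were Trim37 (r = 0.93) and Rgs7bp (r = 0.93), and for Neurod2 they were Tmem198 (r = 0.96) and Herpud1 (r = 0.87). Tfap2a was nearest to Enah (r = 0.87) and Baz1b (r = 0.87), Tfap2c to Cdk6 (r = 0.84) and Lemd1 (r = 0.83), and Barhl2 to Brd3os (r = 0.92) and Ndufa11 (r = 0.88). These are descriptions over 12 libraries that share groups and depth.

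The 8 detected genes differed in how much of their retinal level was present in the eye cup. In untreated wildtype mice, Barhl2 measured 18.5, 23.5 and 19.3 CPM in the retina and 4.30, 0.52 and 2.71 CPM in the eye cup. Pax6 measured 250, 251 and 258 CPM in the retina and 199, 165 and 214 CPM in the eye cup. The tissues did not overlap for either gene, yet the Barhl2 difference was several times larger on the log2 scale, 2.91 (SE 0.54) against 0.31 (SE 0.13).

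Of the 8 genes tested, 7 were higher in the untreated wildtype retina than in the eye cup and passed, where 61.5% of all genes passed and 29% passed as higher in the retina. The 5 DEGs were Tfap2b (2.18, SE 0.23), Ebf3 (2.33, SE 0.40), Neurod2 (2.72, SE 0.69), Barhl2 and Neurod6, where 45.2% of all genes were DEGs. Neurod6 had 79 counts in the 3 retinas and 5 in the 3 eye cups, a ratio of 16.5 with a 95% counting interval of 6.77 to 52.2. Tfap2c (0.83, adjusted p = 0.00454 in edgeR) and Tfap2a (0.38, adjusted p = 0.0477 in edgeR) passed without being DEGs, and Pax6 did not (adjusted p = 0.0759 in edgeR). With the mouse as a block, since retina and eye cup came from the same animals, 6 passed, where 54.8% of all genes did, Tfap2a no longer did (adjusted p = 0.0813 in edgeR) and Pax6 stayed outside (adjusted p = 0.108 in edgeR). Leaving out 1 library changed 3 of these calls in edgeR. Neurod2 had an adjusted p of 0.0523 without eye cup 3. Tfap2a had 0.0670 without eye cup 3, 0.166 without retina 1 and 0.165 without retina 3, and Pax6 passed without eye cup 1 (adjusted p = 0.0486) or eye cup 3 (adjusted p = 0.0343). In a fit over all 24 libraries Tfap2c did not pass either (adjusted p = 0.209). Over 13 alternative settings Tfap2a passed in 5 (log2-fold change 0.32 to 0.67) and Pax6 in 4 (0.26 to 0.61).

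Within each mouse, the eye cup level was expressed as a percentage of the retina level. Over the 12 mice of all 4 groups the median was 85.7% for Pax6 (range 23.8 to 139.8%), 95.7% for Tfap2a (7.07 to 193%) and 75.3% for Tfap2c (2.60 to 180%). It was 27.8% for Tfap2b (6.72 to 67.8%), 24.5% for Neurod2 (1.79 to 75.2%), 23.96% for Ebf3 (8.30 to 59.0%) and 19.0% for Barhl2 (0 to 59.2%). The rod marker list stood at 31.3% (4.49 to 73.0%) and the amacrine function list at 24.5% (9.99 to 64.8%). These ranges overlapped, and the medians pool 4 groups. Tfap2b, for example, was at 17.2 to 27.8% in the 3 untreated wildtype mice and at 46.0 to 67.8% in the 3 with dox.

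Ebf3 kept nearly the same ratio to the amacrine function genes in both tissues, 20.5 to 23.8 CPM per 1000 CPM in the retina and 17.2 to 23.6 in the eye cup. Pax6 did not, with 112 to 139 in the retina and 154 to 845 in the eye cup, ranges that did not overlap. Tfap2c ran from 7.92 to 10.3 in the retina and from 2.17 to 93.2 in the eye cup. For Barhl2 the range was 8.35 to 11.7 in the retina and 0 to 10.3 in the eye cup.

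**Figure D3:**
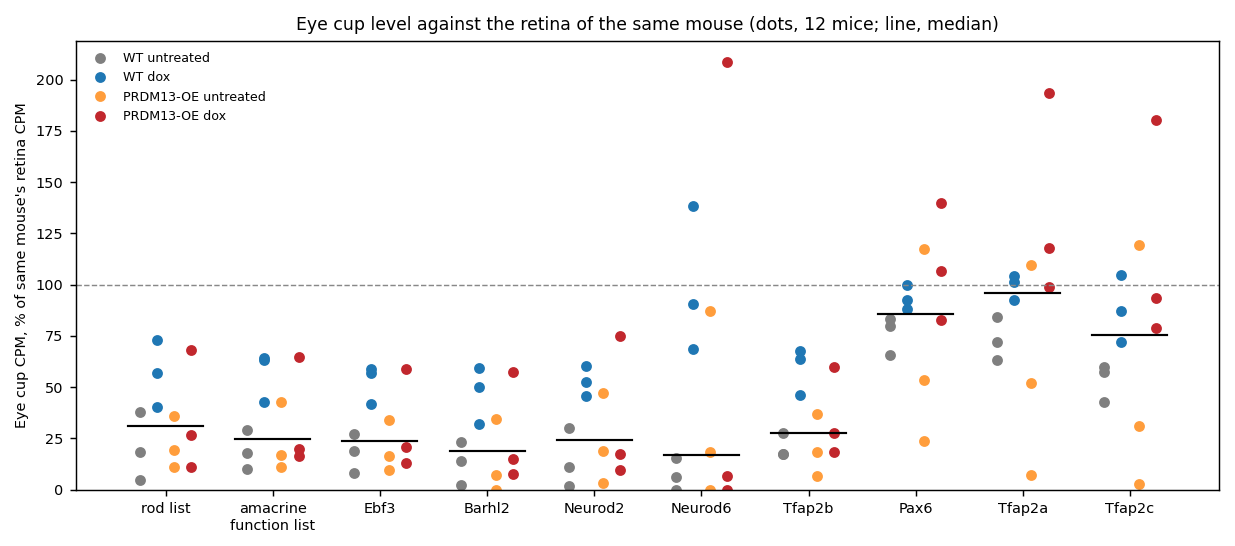
Eye cup CPM as a percentage of the retina CPM of the same mouse (y axis) for the rod and amacrine function lists and for 8 genes, 12 mice coloured by group, with the median as a line. The medians of Pax6 and Tfap2a are 85.7% and 95.7% and those of Ebf3 and Barhl2 23.96% and 19.0%, with overlapping ranges.

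The rod markers in the eye cups summed to between 2999 CPM and 48151 CPM, a spread that runs across groups. Over the 12 eye cups, on log2(CPM + 1), Ebf3 followed the rod sum with Pearson r = 0.97 and Spearman rho = 0.96. Neurod2 followed with r = 0.95 and rho = 0.94, Barhl2 with r = 0.90 and rho = 0.89, and Tfap2b with r = 0.84 and rho = 0.92. The adjusted permutation p over the 32 relations computed was at most 0.00459 for these 4 values of r and at most 0.00211 for rho. All 12 eye cups were permuted without regard to group, so differences between groups enter these p-values. Without the 2 eye cups farthest from the median rod sum, r was 0.97, 0.94, 0.94 and 0.95. Neurod6 had r = 0.78 and rho = 0.87 (adjusted permutation p of 0.0120 and 0.00293), and r = 0.79 without those 2.

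Pax6 and the other AP-2 genes had weaker correlations with the rod sum. Pax6 had r = 0.31 and rho = 0.18 (adjusted permutation p of 0.548 and 0.735), and Tfap2a and Tfap2c had r = 0.34 and r = 0.22 with rho = 0.50 and rho = 0.17 (adjusted permutation p of at least 0.222). Within the 6 eye cups with dox, r for the rod sum was 0.98 for Ebf3, 0.98 for Neurod2, 0.99 for Barhl2 and 0.99 for Tfap2b, and -0.46 for Pax6. Within the 6 untreated eye cups these were 0.94, 0.93, 0.82 and 0.65, and 0.31 for Pax6. The exact permutation p, adjusted over these 16 relations, was at most 0.0222 for the first 4 with dox and between 0.0222 and 0.276 without. Spearman rho for these 4 genes was at least 0.83 in both sets, with an exact permutation p of at most 0.0583 before adjustment.

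Pax6, Tfap2a and Tfap2c are also genes of surface ectoderm and ocular epithelium, and keratin and desmosome genes of that tissue summed to 1303 to 31697 CPM in the eye cups and at most 14.4 CPM in the retinas. All 6 markers of that list were above 3 counts in every eye cup. Pax6 had r = 0.80 and rho = 0.73 with this sum, Tfap2c r = 0.82 and rho = 0.71, and Tfap2a r = 0.71 and rho = 0.43. The adjusted permutation p was 0.00782, 0.00459 and 0.0239 for r and 0.0399, 0.0471 and 0.267 for rho. The relation rests on untreated PRDM13-OE eye cups 2 and 3, since r without them was 0.47, 0.55 and 0.27.

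Against the lens crystallin sum, the 8 genes had r between -0.34 and 0.11, with adjusted permutation p of at least 0.511. Against the RPE and pigment sum, r was below 0 for each of the 8, from -0.71 to -0.58, with rho from -0.90 to -0.46, and r ran from -0.81 to -0.57 without the 2 eye cups farthest from the median of that sum. The lowest adjusted permutation p for r was 0.00248, that of Tfap2a, and the highest was 0.0892. CPM are relative to the other genes of a library, and the part of this in these relations was not tested.

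**Figure D4:**
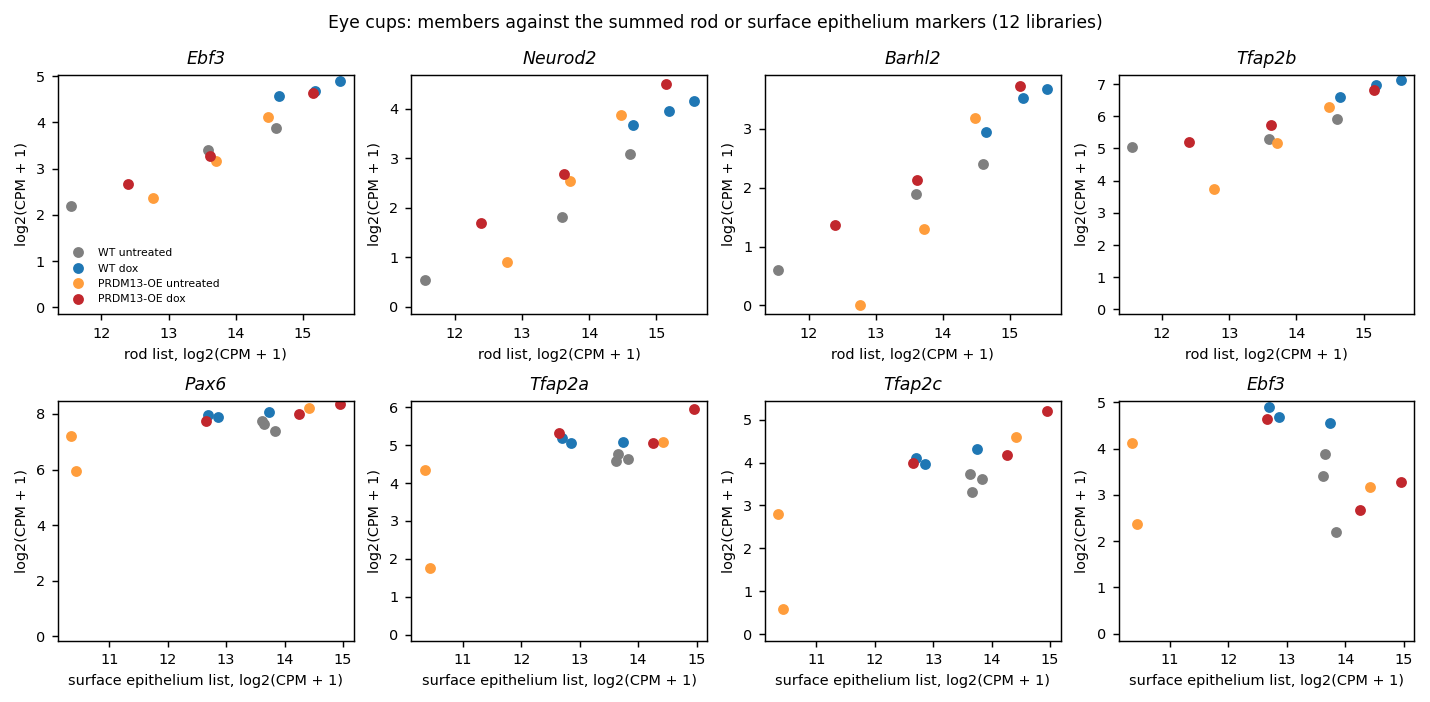
Members against marker sums in the 12 eye cups, both axes in log2(CPM + 1), coloured by group. The upper row plots Ebf3, Neurod2, Barhl2 and Tfap2b against the rod sum (r = 0.97, 0.95, 0.90 and 0.84) and the lower row plots Pax6, Tfap2a, Tfap2c and Ebf3 against the surface epithelium sum, where 2 untreated PRDM13-OE eye cups lie far to the left.

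In wildtype eye cups, dox against no dox separated all 8 genes without any of them passing. Tfap2b measured 139, 124 and 96.3 CPM with dox and 59.4, 31.9 and 38.4 CPM without. Ebf3 measured 28.8, 24.6 and 22.6 CPM with dox and 13.7, 3.60 and 9.65 CPM without. The groups did not overlap for 8 of 8 genes, each higher with dox, where 23.3% of all genes were separated in that direction.

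The log2-fold change was 1.40 for Tfap2b (95% interval 0.81 to 1.99, adjusted p = 0.0673 in edgeR) and 1.42 for Ebf3 (95% interval 0.45 to 2.39, adjusted p = 0.0846 in edgeR). It was 1.96 for Neurod2 and 1.86 for Barhl2, and 0.31 to 0.55 for Pax6, Tfap2a and Tfap2c. Neurod6 had 42 counts in the eye cups with dox and 5 in those without, a ratio of 9.01 with a 95% counting interval of 3.57 to 29.2. An unadjusted p under 0.05 was reached by 7 of the 8 and by 29.9% of all genes, and 0% of all genes passed after adjustment. DESeq2 passed 4 of the 8, Tfap2b, Neurod2, Ebf3 and Barhl2, and 24.8% of all genes. The same 4 passed without untreated eye cup 1, where 13.5% of all genes passed. The rod sum moved with this comparison, from 2999 to 24891 CPM without dox to 25677 to 48151 CPM with it. Other sums were separated between these groups too. The amacrine function sum was 206 to 648 CPM without dox and 982 to 1400 CPM with it, the ganglion cell sum 107 to 402 against 739 to 946 CPM, and the sum of RPE and pigment genes 30031 to 45774 against 10133 to 22723 CPM. With the rod sum as a covariate over all 12 eye cups, the log2-fold change was 0.37 for Tfap2b, 0.23 for Ebf3, 0.24 for Neurod2 and -0.12 for Barhl2. Each adjusted p was at least 0.965 in edgeR, where 0% of all genes passed. In the fit over all 12 eye cups without the covariate, 0% of all genes passed too. The rod sums of the 2 groups did not overlap, so dox and rod content cannot be told apart here.

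PRDM13-OE against wildtype eye cups with dox passed 0 of the 8 genes, and 0.0184% of all genes passed. Ebf3 measured 8.70, 5.39 and 24.03 CPM in PRDM13-OE eye cups with dox, and Neurod2 5.39, 2.22 and 21.6 CPM, so that PRDM13-OE eye cup 3 lay among the wildtype values for Ebf3 and above them for Neurod2, and the other 2 lay below them. The log2-fold change was -0.91 for Ebf3 (95% interval -2.10 to 0.28) and -0.48 for Neurod2 (95% interval -2.15 to 1.19). Without PRDM13-OE eye cup 3, 5 genes passed as lower, Tfap2b, Neurod2, Neurod6, Ebf3 and Barhl2, with log2-fold changes of at most -1.35, where 6.91% of all genes passed as lower. With the rod sum as a covariate over all 12 eye cups, the changes of Neurod2, Neurod6 and Barhl2 were 0.79, 0.68 and 0.70 and those of Tfap2b and Ebf3 -0.13 and -0.15, and 0 of the 8 and 0.0184% of all genes passed. In a fit without that covariate over the 11 eye cups other than PRDM13-OE eye cup 3 with dox, 0 of the 8 and 0% of all genes passed. Rod markers summed to 12557, 5383 and 36281 CPM in PRDM13-OE eye cups 1, 2 and 3 with dox. An unadjusted p under 0.05 was reached by 0 of the 8 and 8.24% of all genes, and DESeq2 passed 0 of the 8 and 0.819% of all genes.

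The last 2 eye cup comparisons include untreated PRDM13-OE eye cup 3, in which Barhl2 had 0 counts, Tfap2c 8 and Tfap2a 38. Against untreated wildtype eye cups, the untreated PRDM13-OE eye cups passed 0 of the 8, and 0% of all genes passed. Dox against no dox within PRDM13-OE eye cups passed 0 of the 8, and 0.0139% of all genes passed. In both comparisons 0 of the 8 reached an unadjusted p under 0.05 and DESeq2 passed 0. Of all genes, 1.87% and 4.14% reached that p and DESeq2 passed 0.0141% and 0.366%, in the same order. Tfap2c measured 23.2, 5.99 and 0.50 CPM in the untreated PRDM13-OE eye cups and 35.9, 16.9 and 14.8 CPM in those with dox, so the ranges overlapped and the 95% interval of its log2-fold change ran from -1.24 to 3.66. Without that library, in a fit over the other 11 eye cups, the change was 0.67.

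**Figure D5:**
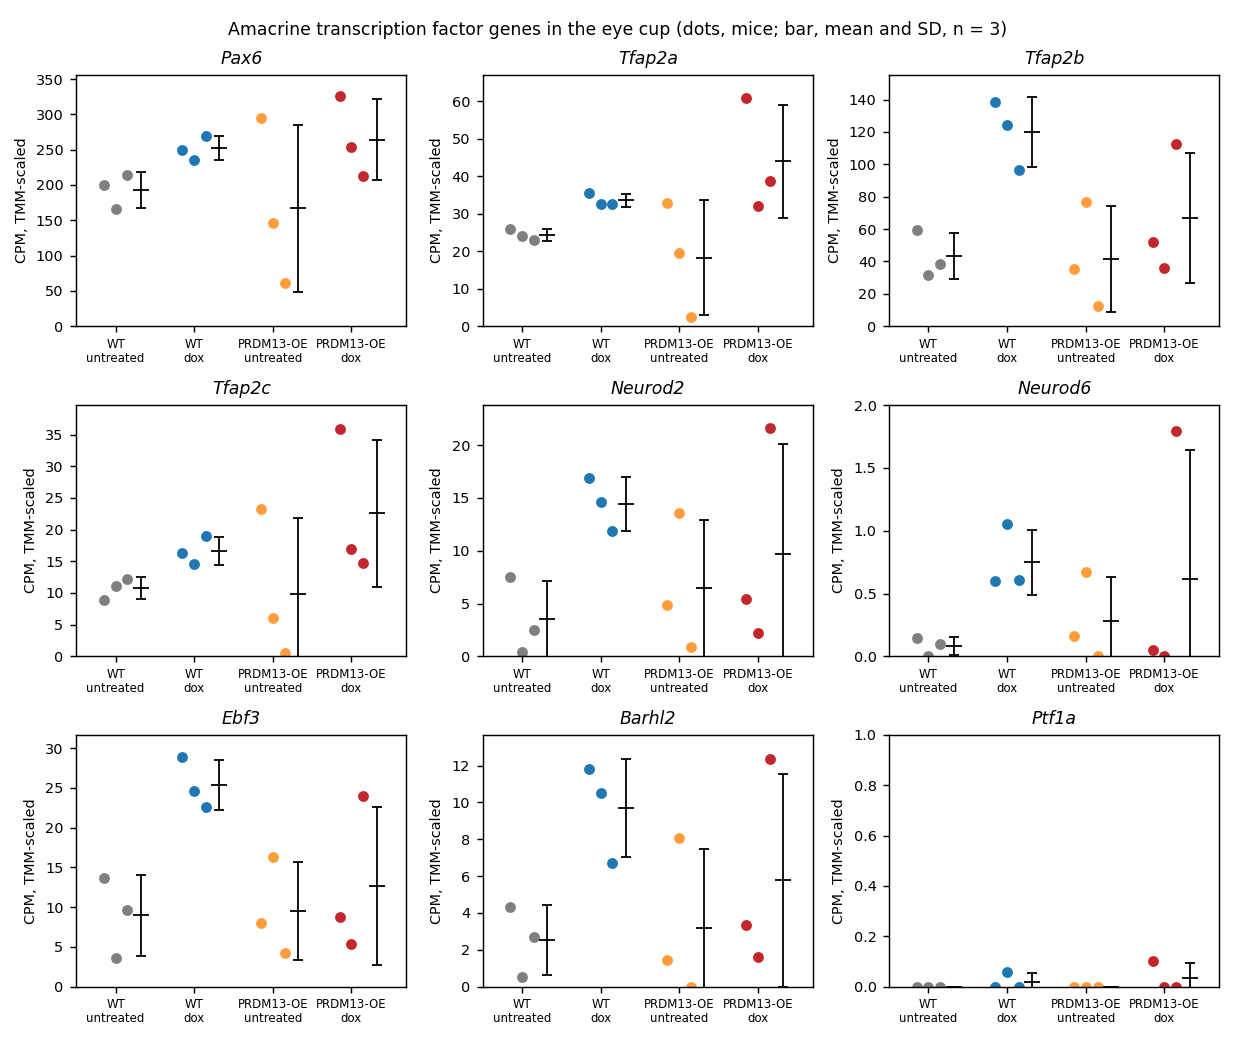
CPM of the 9 genes in the 12 eye cups, by group on the x axis; dots are mice and the black bars are the mean and SD of 3, drawn down to 0 at the lowest. Wildtype eye cups with dox lie above untreated wildtype eye cups for all 8 genes with a signal, and the PRDM13-OE groups spread widely.

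The deposited positions are on GRCm39. Pax6 lies at chr2:105499245-105527709 on the plus strand, Tfap2b at chr1:19279138-19308800 on the plus strand, and Ebf3 at chr7:136795402-136916174 on the minus strand, all protein-coding genes. In GENCODE vM39, exons of Pax6 share 3393 bases with Elp4 on the other strand, and 6 more of the 9 genes share exon bases with an antisense gene, Tfap2c and Barhl2 being the exceptions. The strand setting of the counting was not given in the sources used here, so reads of such overlapping pairs cannot be told apart.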

How the data were processed

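For every gene and library the authors deposited raw read counts, not normalized, and FPKM values computed by them from gene length and count, for 24 libraries sequenced and quantified by Novogene against GRCm39. The deposited table also gives a gene length, and it holds group means, log2-fold changes and p-values of the authors' own comparisons, which were not used. The submitters' processing notes name HISAT2 and CASAVA, and the counting tool, its strand setting and the annotation release were not given in the sources used here.

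The quasi-likelihood test of edgeR 4.0.16 (R 4.3.3) was applied to the counts with TMM factors and without robust fitting. Genes needed a sum of 10 or more counts in the libraries of a comparison, and p-values were adjusted by Benjamini-Hochberg over all genes tested. Groups of 3 were fitted alone, and the interaction over 12 retinas. CPM printed in the text use TMM factors over all 24 libraries, whereas each fold change uses factors of its own comparison. Scaling between tissues of different makeup assumes that most genes do not differ. DESeq2 1.42.0 was an alternative, with other scalings, filters, fits and libraries left out. Correlations over eye cups used log2(CPM + 1) and 100000 permutations, or all orders for 6 libraries, and were two-sided. The permutations over 12 eye cups ignored group and those over 6 ignored genotype, so such differences enter the p-values. Nearest genes used log2(CPM + 0.5) of protein-coding genes with a mean of at least 1 CPM over the 12 retinas, for genes with a mean of at least 50 counts. Python 3.11.15, numpy 2.4.6, pandas 2.3.3, scipy 1.17.1 and matplotlib 3.10.9 were used. The scripts were tested on simulated data.

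No 2 libraries were copies of each other. Intervals and floors from counts cover counting error only. Retina and eye cup with the same number in a group came from the same mouse per the labels, and in untreated wildtype mice their deviations from the group means correlated in each of the 3 pairs (r of 0.128, 0.158 and 0.127), so the mouse was blocked in that comparison as an alternative. The groups hold different mice. The study as a whole used both sexes, and the labels give no sex for these mice. The genes and marker lists were chosen with earlier results of these data known. Named were the 9 genes, mouse Prdm13 and any DEG of the 2 other amacrine lists in retina comparisons with dox, of which there were 0, and the 2 nearest genes. Other genes of those lists were named outside this rule, after their values were seen. Of the amacrine function genes, 1 is counted in its list but not reported here by name.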

Additional observations from a re-analysis of the deposited data

How the results depend on the processing

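For PRDM13-OE against wildtype retinas with dox, the number of the 8 genes that passed was 0 in the main test, 1 with DESeq2, 2 with no filter on low counts and 2 with robust fitting (12.1% and 14.1% of all genes). The fit without the 2 crystallin-rich wildtype retinas was chosen after seeing the data and left 1 wildtype retina with dox. The number was 0 to 1 when each retina was left out in turn, where 7.52% to 11% of all genes passed. For wildtype eye cups with dox against none it was 4 with DESeq2, 1 with library size alone and 2 with no filter (6.18% and 5.52% of all genes), and 0 to 4 when each eye cup was left out, the 4 without untreated eye cup 1 and a 1, Tfap2b, without eye cup 3 with dox. Of all genes, 13.5% and 6.59% passed without these 2 eye cups. For PRDM13-OE against wildtype eye cups with dox it was 0 to 5, the 5 without PRDM13-OE eye cup 3. For retina against eye cup it was 6 to 8 over the libraries left out (52.3% to 64.8% of all genes), 5 with the fold cutoff, 6 with a replicate block (54.8%) and 5 in one fit over all 24 libraries (64.1%), where Tfap2a and Tfap2c did not pass (adjusted p = 0.410 and 0.209 in edgeR). In the other comparisons it stayed 0 in every setting run, the replicate block included, and the numbers did not pair mice across groups. The cause was not tested.

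With library size in place of TMM factors the median log2-fold change of all genes in PRDM13-OE against wildtype retinas with dox moved to 0.09, and Pax6 stood at -0.07 and Ebf3 at -0.16. The order of the 9 genes by level was the same by CPM per kilobase and without each untreated wildtype retina. The 7 genes that passed in retina against eye cup were higher in the retina in every setting run. In the 2 eye cup comparisons with dox, Neurod2, Neurod6 and Barhl2 (PRDM13-OE against wildtype) and Barhl2 (wildtype with dox against none) passed in some setting and had the other sign with the rod covariate. At 12 to 28 counts a retina, the 95% interval of Neurod6 in PRDM13-OE against wildtype retinas with dox reached past 2-fold.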
